A study of Mus musculus with 7 samples.

Results

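The genes described here are 38 genes of the unfolded protein response and of the amino acid response, measured in cultured mouse cortical neurons that carried a control hairpin or no virus. They are given by name, with no threshold on their values, but were chosen with earlier results of these data known. They fall into 4 roles. There were 14 chaperones and folding enzymes of the endoplasmic reticulum (ER), 7 genes of ER-associated degradation, 5 sensors and transcription factors, and 12 target genes of the transcription factor ATF4. Of these, 36 could be tested, out of 12315 genes tested in all.

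Proteins that fold wrongly in the ER are sensed by the membrane proteins PERK (encoded by *Eif2ak3*), IRE1 (*Ern1*) and ATF6. IRE1 splices the messenger RNA of XBP1, and XBP1 and ATF6 then switch on chaperones and the machinery that returns bad proteins to the cytosol for destruction. PERK slows translation through the initiation factor eIF2, which favours translation of ATF4. Other kinases act on eIF2 when amino acids are short, so ATF4 target genes, among them amino acid transporters and enzymes of serine and one-carbon metabolism, belong to both responses. ATF4 and XBP1 are controlled largely after transcription, which a measurement of RNA level does not read.

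The neurons came from cortices of embryonic day 16 mice of the strain C57/Bl6J and were harvested at 16 days in vitro. The luciferase group (4 arrays) had been transduced, 2 weeks before harvest, with a lentivirus whose hairpin targets luciferase, a gene the cells do not have, and the blank group (3 arrays) had received no virus. In the vector a human H1 promoter drives the hairpin and green fluorescent protein is expressed as well, so the effects of virus, hairpin and fluorescent protein cannot be told apart in this comparison. It addresses how far the control transduction alone shifted these genes. Arrays are numbered as in the labels, luciferase 1 to 4 and blank 5 to 7. A p-value here reflects only how the arrays of a group differ from each other. The paper describes replicate cultures randomized over plates, and does not state whether they came from separate preparations of cortex. It left out an untransduced sample that failed quality control.

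The level of a gene is given as the deposited RMA intensity on a linear scale, and a change as the log2 difference, luciferase minus blank, with its standard error (SE) from limma. A gene passed at an adjusted p of at most 0.05 over all 22748 tested probe sets. By this test 16.9% of all 12315 genes were higher in luciferase neurons and 8.55% were lower, so a moderate number of changes is the background for any gene list. The median change over all genes was 0.06. The median level of the tested probe sets was 237.4 to 241.4 on the luciferase arrays and 215.5 to 235.1 on the blank arrays, and blank 7 was the highest blank array in 59.7% of genes.

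The cultures held more than neurons. Of 17 tested astrocyte markers, 10 were higher in luciferase neurons (58.8%) and none was lower, with *Gfap*, the intermediate filament of astrocytes, at 981.3 against 434.7. The summed level of the 17 astrocyte markers was 52909 to 57842 on luciferase arrays and 43439 to 45799 on blank arrays. The 16 neuron markers summed to 42954 to 45369 against 40684 to 44713, with 3 higher (18.8%) and 2 lower (12.5%). The 7 vascular and meningeal markers summed to 658 to 871 against 1081 to 1244. Of these, 3 were lower (42.9%, *Dcn*, *Flt1* and *Col1a2*) and 1 was higher (14.3%, *Pdgfrb*), beside 8.55% and 16.9% of all genes. Without *Dcn*, a matrix proteoglycan gene, the other 6 summed to 295.0 to 330.5 against 304.6 to 350.1. That sum joins opposite moves, with *Flt1* at 51.5 against 69.3 and *Pdgfrb* at 78.3 against 49.3. The 9 oligodendrocyte markers summed to 6484 to 7771 against 6824 to 7012, and the 9 markers of progenitors and dividing cells to 6380 to 7229 against 5479 to 5831. Only 3 of 13 microglia markers reached the filter level, and they summed to 225 to 257 against 252 to 325. In whole cultures, fewer cells of a type and less RNA per cell cannot be told apart. The part of these marker shifts in the results below was not tested.

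A short control sequence lies in the promoters of many ER chaperone genes and is shown here because its share differed between the roles. The ER stress response element (ERSE) has the letters CCAAT, then any 9 bases, then CCACG, and is known to be bound by NF-Y and ATF6. It was searched for as an exact match, on both strands, in RefSeq promoter windows of GRCm38.p6 that run from 250 bases before to 50 after the annotated start. Windows were found for 33 of the 38 genes, 35 windows in all, and *Atf6*, *Derl1*, *Hyou1*, *Manf* and *Slc7a5* had none. The element occurred in 0.119% of all 32851 promoter windows and in 9 of the 35 windows (25.7%). It was in 7 of 12 chaperone windows (58.3%), in 2 of 7 windows of degradation genes (28.6%), and in none of 12 windows of ATF4 target genes. The 10 matches are given on the strand that reads CCAAT first, with 10 bases on either side and with the fixed letters in capitals.
Hspa5, chr2:34772015-34772053, + strand: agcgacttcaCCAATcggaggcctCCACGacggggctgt
Hsp90b1, chr10:86705628-86705666, - strand: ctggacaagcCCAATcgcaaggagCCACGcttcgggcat
Hsp90b1, chr10:86705523-86705561, + strand: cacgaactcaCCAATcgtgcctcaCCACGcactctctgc
Calr, chr8:84847065-84847103, + strand: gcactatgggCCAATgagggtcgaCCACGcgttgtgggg
Canx, chr11:50325790-50325828, - strand: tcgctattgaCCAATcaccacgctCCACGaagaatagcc
Pdia6, chr12:17266481-17266519, + strand: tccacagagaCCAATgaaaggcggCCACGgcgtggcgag
Dnajc3, chr14:118937817-118937855, + strand: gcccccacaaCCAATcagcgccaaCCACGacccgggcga
Creld2, chr15:88819510-88819548, - strand: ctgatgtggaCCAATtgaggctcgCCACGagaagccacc
Derl3, chr10:75893232-75893270, - strand: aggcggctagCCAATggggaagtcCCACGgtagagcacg
Syvn1, chr19:6046522-6046560, + strand: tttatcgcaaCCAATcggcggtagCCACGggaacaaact

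The composite element bound by CEBP and ATF4 proteins was searched for as TGATGCAA, again exact and on both strands. It occurred in 0.895% of all windows and in 3 of the 35 windows, those of *Chac1*, *Herpud1* and *Slc7a11*. The last held it on both strands. The 4 matches are given with the element in capitals.
Chac1, chr2:119351039-119351066, - strand: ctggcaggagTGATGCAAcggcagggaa
Herpud1, chr8:94386307-94386334, - strand: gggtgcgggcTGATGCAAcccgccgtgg
Slc7a11, chr3:50443662-50443689, - strand: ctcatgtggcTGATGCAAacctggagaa
Slc7a11, chr3:50443643-50443670, + strand: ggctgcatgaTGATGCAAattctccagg
The motif TGACGTGG, a core of the unfolded protein response element bound by XBP1 and ATF6, occurred in 0.676% of all windows and in none of the 35. A match describes letters in these windows and nothing about binding in these neurons.

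**Figure D1:**
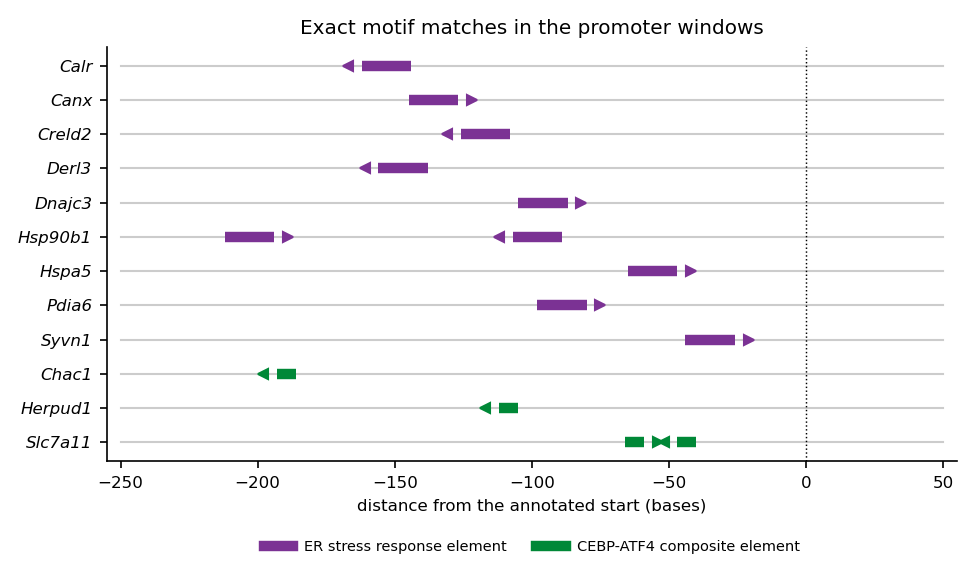
Exact matches of both elements along the promoter windows, as distance in bases from the annotated start (x axis, 250 bases before to 50 after), 1 line per gene. Arrows give the strand on which the motif reads, and all 14 matches lie before the start, those of the ER stress response element from 212 to 26 bases before it.

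As a whole the 36 tested genes moved little. There were 9 higher in luciferase neurons (25%) and 3 lower (8.33%), while 24 did not pass, and the median change was 0.11 on the log2 scale. The share of lower genes was close to the background of 8.55%, and the 9 higher genes stand beside a background of 16.9%. The split of higher against lower depended on the scaling of the arrays. It was 9 to 3 on the deposited values, 5 to 5 after quantile normalization and 3 to 5 after centring each array on its median.

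Only *Mthfd2* was higher by at least 1.5-fold and only *Slc7a5* lower by as much, against 2.6% and 1.46% of all genes. The 4 luciferase arrays lay entirely above the 3 blank arrays in 14 of the 36 genes (24.5% of all genes did so) and entirely below in 4 (13% of all genes).

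**Figure D2:**
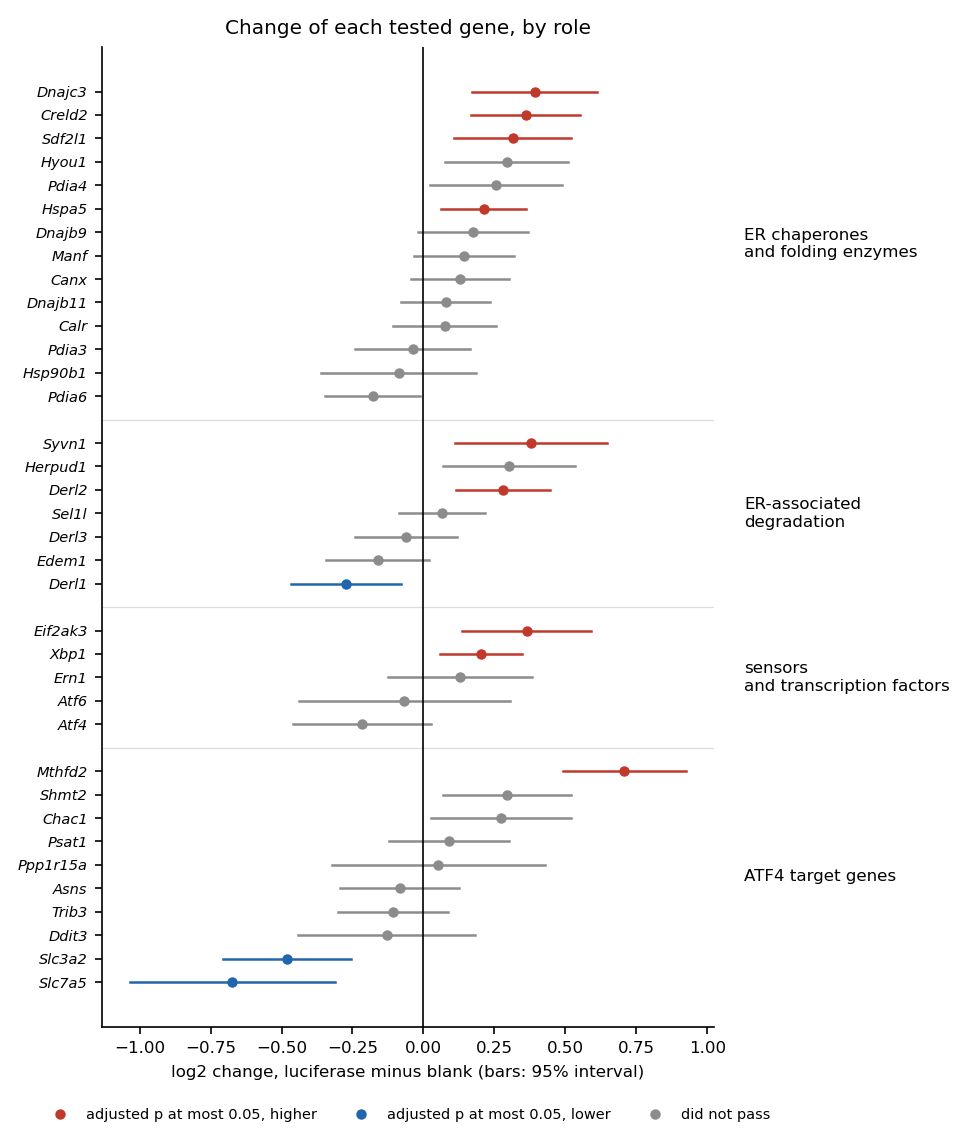
Log2 change of each of the 36 tested genes (x axis, luciferase minus blank, 4 against 3 arrays) with its 95% interval from limma, grouped by role. Of the 14 chaperones 11 have changes above 0, but the median change of all genes is above 0 too, at 0.06. After centring, *Calr* (-0.021) and *Dnajb11* (-0.017) also lay below 0, so this count depends on the scaling of the arrays. The ATF4 target genes run from -0.67 (*Slc7a5*) to 0.71 (*Mthfd2*).

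Among the 14 ER chaperones and folding enzymes, 4 were higher in luciferase neurons (28.6%) and none was lower, beside 16.9% and 8.55% of all genes. The 4 were *Dnajc3*, *Creld2*, *Sdf2l1* and *Hspa5*, and the other 10 did not pass. The median change of the 14 was 0.16. The median was 0.12 after quantile normalization and 0.06 after centring, where all tested probe sets had a median of -0.04 and only *Creld2* still passed as higher.

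*Hspa5* encodes BiP, the main chaperone of the ER lumen, which also holds the sensors inactive. Its level was 4456, 4439, 4359 and 4232 on luciferase arrays 1 to 4 and 3787, 3645 and 3889 on blank arrays 5 to 7. The groups did not overlap and each spanned a narrow range. The means were 4372 ± 102 (SD, n = 4) and 3774 ± 122 (SD, n = 3), a log2 change of 0.21 (SE 0.067, adjusted p = 0.0456 from limma). The change fell to 0.12 after centring and no longer passed (adjusted p = 0.192). The other tested probe set of *Hspa5* also had 0.21, but its groups overlapped and it did not pass (adjusted p = 0.158 from limma).

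*Dnajc3* encodes P58IPK, a cochaperone of BiP that was first known as an inhibitor of eIF2 kinases. Its level was 479.1, 416.5, 437.0 and 375.8 on luciferase arrays 1 to 4 and 299.2, 324.6 and 351.5 on blank arrays. The groups did not overlap, with a log2 change of 0.39 (SE 0.098, adjusted p = 0.0202 from limma). Of its 5 tested probe sets 4 passed as higher, with changes of 0.39 to 0.81. The other had 0.21 (adjusted p = 0.407) and reached the filter level of 50 on luciferase arrays only. With centring the change at the strongest probe set was 0.30 (adjusted p = 0.0505).

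*Creld2* encodes a secreted ER protein with disulfide isomerase activity that rises in ER stress. Its level was 306.0, 306.3, 287.9 and 314.5 on luciferase arrays and 249.6, 209.4 and 252.8 on blank arrays. Each luciferase array was above each blank array, the log2 change was 0.36 (SE 0.086, adjusted p = 0.0168 from limma), and it passed under 15 of 16 alternative settings that kept the threshold. *Sdf2l1*, which helps keep BiP clients soluble, stood at 195.3, 189.0, 171.2 and 202.3 on luciferase arrays and at 168.3, 151.0 and 138.4 on blank arrays. Luciferase 3 and blank 5 were close but did not cross, and the log2 change was 0.31 (SE 0.092, adjusted p = 0.0349 from limma). It passed under only 7 of 16 such settings, and was 0.20 with array weights (adjusted p = 0.0639) and 0.22 with centring (adjusted p = 0.127).

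Of the 10 chaperones that did not pass, *Hyou1*, an ATP-driven helper of BiP, and *Pdia4*, a disulfide isomerase, had the largest positive values, 0.29 (adjusted p = 0.0520) and 0.25 (adjusted p = 0.0994). *Dnajb9* and *Dnajb11*, J-domain cochaperones of BiP, had changes of 0.17 and 0.08, and the secreted survival factor *Manf* had 0.14. The lectin chaperones *Canx* and *Calr* had 0.13 and 0.07. *Pdia6*, a disulfide isomerase, lay lower on every luciferase array (1467 to 1596) than on any blank array (1654 to 1875), with a change of -0.18 that did not pass (adjusted p = 0.110). *Pdia3*, the isomerase that works with both lectins, had -0.04.

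*Hsp90b1* encodes GRP94, the ER member of the HSP90 family, and its probe sets did not move alike. The probe set with the highest level had 2379, 2277, 2422 and 1829 on luciferase arrays and 2113, 2254 and 2727 on blank arrays, with a change of -0.09 (adjusted p = 0.627). The other had a mean of 2049 against 1620, a change of 0.34 (adjusted p = 0.0169 from limma). Its direction therefore depends on the probe set.

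Among the 7 genes of ER-associated degradation, 2 were higher (28.6%, *Syvn1* and *Derl2*), 1 was lower (14.3%, *Derl1*) and 4 did not pass. Over all genes 16.9% were higher and 8.55% lower, and in so short a list these counts are not read as a result about the role. The median change of the 7 was 0.07, which turned to -0.03 with each array centred on its median. *Syvn1* encodes HRD1, the ubiquitin ligase at the centre of this machinery. Its level was 519.2, 494.3, 516.9 and 468.9 on luciferase arrays and 310.5, 405.0 and 451.1 on blank arrays. The luciferase arrays lay close together above a wide blank group, and the log2 change was 0.38 (SE 0.12, adjusted p = 0.0455 from limma). It passed under only 7 of the 16 settings, and was 0.22 without blank 5, the lowest blank array (adjusted p = 0.130). The other tested probe set of *Syvn1* had 0.28 with overlapping groups and did not pass (adjusted p = 0.0819 from limma).

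The derlins are membrane proteins of the channel through which misfolded proteins leave the ER. *Derl2* stood at 390.3, 387.7, 352.0 and 388.8 on luciferase arrays and at 307.8, 303.1 and 327.1 on blank arrays. Its groups were apart, although luciferase 3 was lower than the other luciferase arrays, with a log2 change of 0.28 (SE 0.073, adjusted p = 0.0242 from limma). With centring it was 0.18 and did not pass (adjusted p = 0.0686). The other tested probe set of *Derl2* had 0.27 with overlapping groups and did not pass (adjusted p = 0.0656 from limma). *Derl3* was near the filter level, at 64.0 to 69.9 against 63.6 to 75.4, and had a change of -0.06.

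*Derl1* was the only gene with probe sets that passed in both directions. The probe set with the highest level stood at 1086, 1070, 1081 and 983.2 on luciferase arrays and at 1186, 1217 and 1429 on blank arrays, a log2 change of -0.27 (SE 0.086, adjusted p = 0.0462 from limma). A further probe set stood at 471.7, 494.1, 417.1 and 464.5 on luciferase arrays and at 353.0, 351.1 and 352.1 on blank arrays, a log2 change of 0.39 (SE 0.077, adjusted p = 0.0082 from limma). The groups did not overlap on either. The other 2 probe sets had 0.13 and -0.19 and did not pass, and the mean of all 4 changed by 0.01. No direction can be given for *Derl1* as a gene from these arrays.

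*Herpud1*, which recruits the ligase complex and is an early target of both ATF6 and ATF4, stood at 1041, 1292, 998.8 and 1023 on luciferase arrays and at 917.2, 807.7 and 914.2 on blank arrays. The groups did not overlap and luciferase 2 was far above the rest of its group, but the change of 0.30 did not pass (adjusted p = 0.0604). *Sel1l*, the partner of HRD1, had 0.07 at its strongest probe set, while 1 of its 4 other probe sets passed with 0.26. *Edem1*, which marks misfolded glycoproteins for removal, had -0.16 (adjusted p = 0.168).

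Of the 5 sensors and transcription factors, *Eif2ak3* and *Xbp1* were higher and *Ern1*, *Atf6* and *Atf4* did not pass. The share of higher genes was 40% and none was lower, beside 16.9% and 8.55% of all genes, in a list of only 5. *Eif2ak3*, which encodes PERK, stood at 425.6, 437.5, 411.6 and 394.2 on luciferase arrays and at 305.9, 290.1 and 383.1 on blank arrays. Luciferase 4 and blank 7 were close, the groups did not overlap, and the log2 change was 0.36 (SE 0.10, adjusted p = 0.0299 from limma). The call was lost without luciferase 1, 2 or 3 or blank 5 or 6, with 0.28 and an adjusted p of 0.106 without blank 6. *Xbp1*, the transcription factor made active by IRE1 splicing, had the tightest groups of any gene that passed.

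*Xbp1* stood at 3138, 3097, 3133 and 3206 on luciferase arrays and at 2692, 2710 and 2789 on blank arrays, a log2 change of 0.20 (SE 0.065, adjusted p = 0.0469 from limma). This is a small difference, and it was 0.11 after centring (adjusted p = 0.229). Its other 3 tested probe sets had 0.17, 0.12 and -0.22 and did not pass, and spliced and unspliced forms are not told apart by these values.

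The probe sets of *Ern1* and of *Atf6* had changes of both signs. *Ern1* had 123.1, 153.2, 161.8 and 132.2 on luciferase arrays and 129.6, 116.9 and 143.4 on blank arrays at its strongest probe set (change 0.13), and a weaker probe set passed in the opposite direction with -0.39 (adjusted p = 0.0334 from limma). *Atf6* had -0.07 with a wide blank group (201.0, 226.2 and 341.6). *Atf4* itself stood at 3529, 4706, 3735 and 3635 on luciferase arrays and at 4800, 4201 and 4522 on blank arrays. Luciferase 2 lay within the blank group and the other 3 below it, with a log2 change of -0.22 over all arrays (adjusted p = 0.171) and -0.31 without luciferase 2 (adjusted p = 0.0403 from limma).

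**Figure D3:**
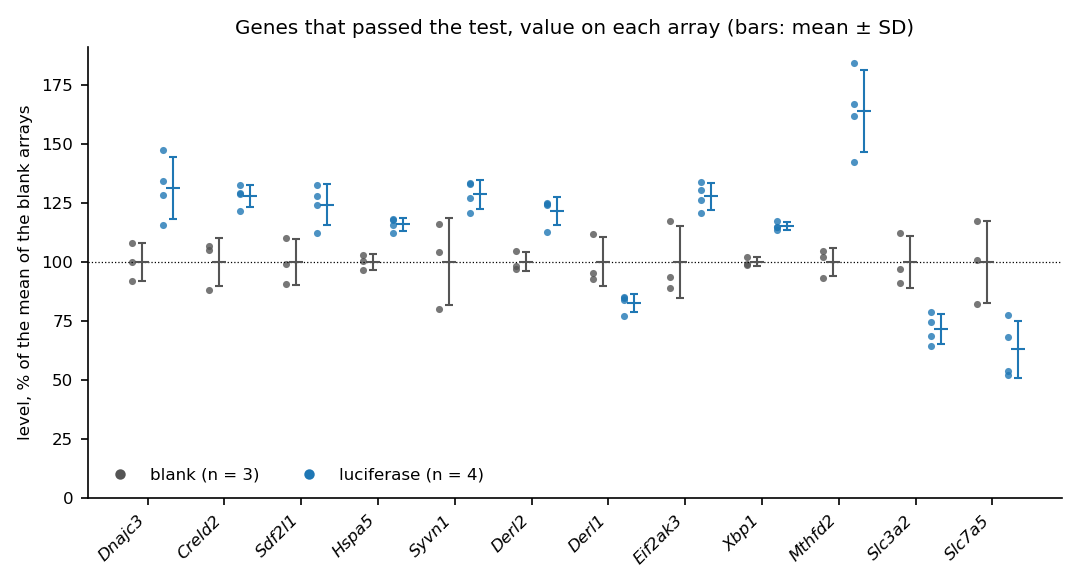
Level of the 12 genes that passed, on each of the 4 luciferase and 3 blank arrays, as a percentage of the mean of the blank arrays (y axis), with the mean and SD beside the points. *Mthfd2* stands apart with a luciferase mean of 163.8% of blank, *Slc3a2* and *Slc7a5* lie at 71.6% and 62.9%, and the chaperones that passed lie between 115.8% and 131.4%.

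With each gene read at its strongest probe set, the ATF4 target genes held both the highest and the lowest change of the 36. Of the 10 tested, 1 was higher (10%, *Mthfd2*), 2 were lower (20%, *Slc3a2* and *Slc7a5*) and 7 did not pass. Over all genes 16.9% were higher and 8.55% lower. The median change of the 10 was -0.02. That median was -0.07 after quantile normalization, -0.11 after centring and 0.04 with the mean of all probe sets of a gene, and it ran from -0.14 (without blank 6) to 0.07 (without blank 7) when 1 array was left out.

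*Mthfd2* encodes a mitochondrial enzyme of the folate cycle that passes one-carbon units on from serine. Its level was 816.3, 1058, 958.1 and 927.6 on luciferase arrays and 601.2, 535.4 and 585.3 on blank arrays. The lowest luciferase array was well above the highest blank array. The means were 940.0 ± 99.5 (SD, n = 4) and 574.0 ± 34.3 (SD, n = 3), or 163.8% of blank, a log2 change of 0.71 (SE 0.097, adjusted p = 0.0017 from limma).

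The second probe set of *Mthfd2* stood at 713.0, 805.9, 759.1 and 695.4 on luciferase arrays and at 608.9, 600.2 and 652.2 on blank arrays. It too had groups that did not overlap, with a smaller log2 change of 0.26 (adjusted p = 0.0395 from limma). *Shmt2*, the mitochondrial enzyme that feeds one-carbon units from serine into the same cycle, stood at 326.9, 363.4, 303.1 and 297.4 on luciferase arrays and at 277.6, 232.4 and 280.0 on blank arrays. Its groups did not overlap, but the change of 0.29 did not pass (adjusted p = 0.0586).

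*Slc7a5* encodes LAT1, the carrier of large neutral amino acids such as leucine. Its level was 1065, 1584, 1389 and 1101 on luciferase arrays and 2056, 1678 and 2392 on blank arrays. The groups did not overlap, but both were wide, and luciferase 2 and blank 6 came near each other. The means were 1285 ± 246 (SD, n = 4) and 2042 ± 357 (SD, n = 3), or 62.9% of blank, a log2 change of -0.67 (SE 0.16, adjusted p = 0.0169 from limma), which did not pass without blank 5 (adjusted p = 0.0504).

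*Slc3a2* encodes CD98hc, the heavy chain that carries LAT1 and related carriers to the cell surface, and it fell as well. Its level was 2673, 3281, 3100 and 2852 on luciferase arrays and 4023, 3777 and 4669 on blank arrays. The groups were clearly apart. The means were 2976 ± 268 (SD, n = 4) and 4156 ± 461 (SD, n = 3), or 71.6% of blank, a log2 change of -0.48 (SE 0.10, adjusted p = 0.0102 from limma), so both chains of this transporter were lower by the same test.

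The remaining ATF4 target genes that were tested had overlapping groups, apart from *Chac1* and *Shmt2*. *Chac1*, which breaks down glutathione, stood at 1175, 1541, 1198 and 1129 on luciferase arrays and at 1083, 1030 and 991.9 on blank arrays, with a change of 0.27 that did not pass (adjusted p = 0.0967). *Ddit3*, which encodes the stress factor CHOP, stood at 1078, 1435, 1119 and 1106 against 1303, 1066 and 1535, with a change of -0.13. *Asns*, the asparagine synthetase, had -0.08, *Trib3*, a pseudokinase that restrains ATF4, -0.11, *Psat1*, of serine synthesis, 0.09, and *Ppp1r15a*, the phosphatase subunit that reverses eIF2 phosphorylation, 0.05.

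*Slc7a11*, the cystine carrier, and *Phgdh*, the first enzyme of serine synthesis, were not tested. Both probe sets of *Slc7a11* lay under the filter level of 50 on all arrays, between 17.6 and 36.0. The probe sets of *Phgdh* were left out because their names mark possible cross-hybridization (_x) or because they are shared with another gene. On 3 of the 4 _x probe sets the luciferase arrays lay above the blank arrays, for example 1703, 1584, 1484 and 1355 against 1184, 1106 and 1275, given here as values with no test.

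Luciferase 2 was the highest luciferase array in all 10 tested target genes and in *Atf4*, 11 of 11, whereas it was highest in 32.3% of all genes. Relative to the mean of the other 3 luciferase arrays, it stood at 129.5% for *Atf4* and at 111.0% to 133.7% for the 10 target genes, with a median of 121%. The same median was 100.8% for the ER chaperones and 101.5% for all genes. Among the 35 other ATF4 target and amino acid genes, luciferase 2 was highest in 20 (57.1%), with a median of 110.4%. It was also highest in 57.9% of the other degradation genes, 47.1% of the other sensors and 42.9% of the other folding genes. The medians of these lists were 104.4%, 106% and 103%, and the other sensors ran from 82.21% to 160.8%. Whether genes in these lists that also respond to ATF4 carry the high values was not tested.

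On the blank side, blank 7 was highest in 8 of the 10 target genes, beside 59.7% of all genes. Without luciferase 2 the change of *Mthfd2* was 0.65 (adjusted p = 0.00459), of *Slc7a5* -0.78 (adjusted p = 0.0121) and of *Slc3a2* -0.53 (adjusted p = 0.0137), so none of these calls rested on that array.

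**Figure D4:**
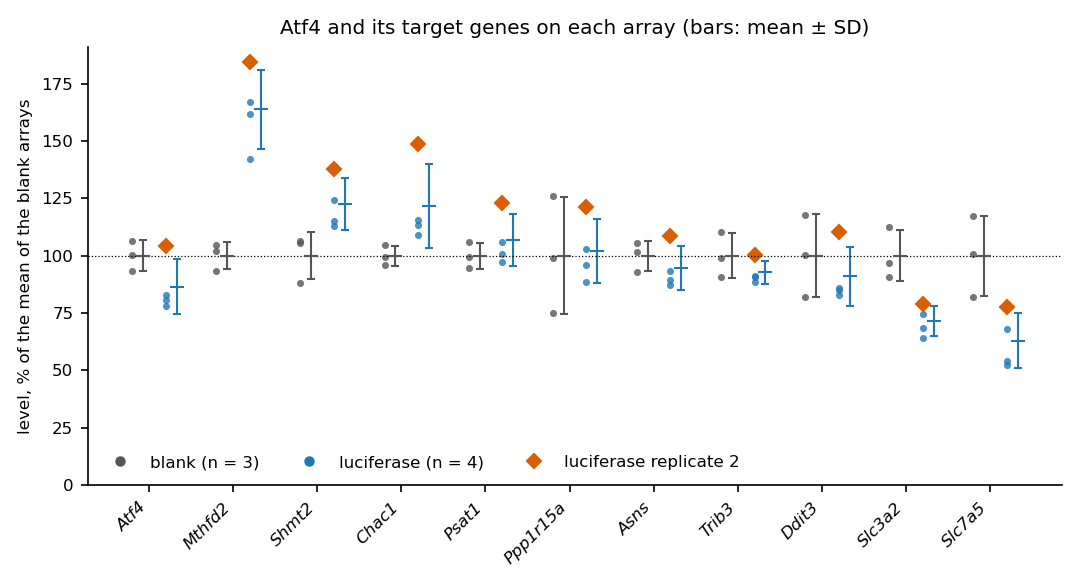
Level of *Atf4* and the 10 tested ATF4 target genes on each array, as a percentage of the mean of the blank arrays (y axis), with the mean and SD beside the points and luciferase replicate 2 drawn as a diamond. The diamond is the highest luciferase value in all 11 genes, at 111.0% to 133.7% of the mean of the other 3 luciferase arrays, including genes whose luciferase mean is below blank.

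The choice of probe set mattered for several of the 36 genes. Of 67 tested probe sets, 16 were higher and 4 were lower, against 16.2% and 8.26% of all tested probe sets, and 47 did not pass. Several of the higher probe sets read the same gene, as for *Dnajc3* and *Mthfd2*, so these are not counts of separate genes. Of the 18 genes with more than 1 tested probe set, 7 had changes of both signs. In 3 of the 18 (*Hsp90b1*, *Sel1l* and *Ern1*) the strongest probe set did not pass and another did. For *Hspa5*, *Syvn1*, *Derl2* and *Xbp1* only the strongest probe set passed.

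**Figure D5:**
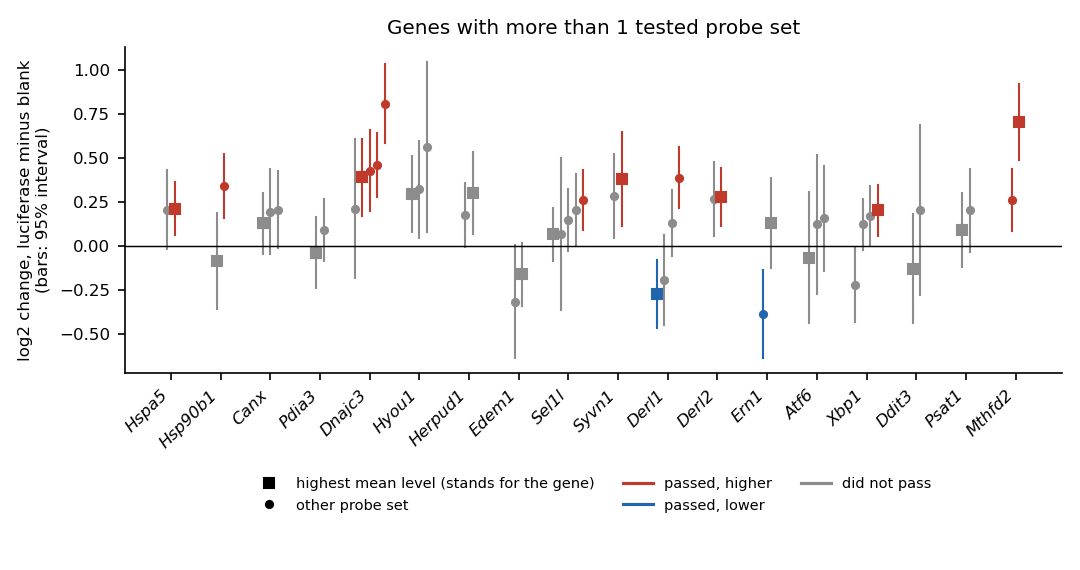
Log2 change (y axis, luciferase minus blank) of every tested probe set of the 18 genes with more than 1, with its 95% interval from limma. The square is the probe set with the highest mean level, which stands for the gene, and *Derl1* is the gene with passed probe sets on both sides of 0.

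The 9 genes whose promoter window held the ER stress response element had a median change of 0.13, from -0.18 (*Pdia6*) to 0.39 (*Dnajc3*). Of these, 4 passed as higher (*Creld2*, *Dnajc3*, *Hspa5* and *Syvn1*), beside 16.9% of all genes, 25% of the 36 and 28.6% of the chaperones. Of the 4, *Hspa5* and *Syvn1* passed under only 7 of 16 settings. Among the chaperones only *Creld2* still passed as higher after centring. The 2 tested genes with the ATF4 composite element, *Chac1* and *Herpud1*, had 0.27 and 0.30 and did not pass.

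A further 108 genes of the same pathways, of which 99 were tested, gave 19 higher (19.2%) and 5 lower (5.05%), with a median change of 0.07. Over all genes these shares were 16.9% and 8.55%. Of the 19, *Fkbp11* and *Eif2ak2* reached the filter level of 50 on luciferase arrays only, so the filter itself favoured higher values in that group. Without both, 17 of 97 were higher (17.5%), close to the background. Of 28 other folding and translocation genes, 5 were higher (17.9%) and 3 lower (10.7%). *Fkbp11*, a prolyl isomerase of secretory cells, stood at 62.9 against 30.8. *Txndc5*, a thioredoxin-type isomerase, was higher by 0.42, *Uggt1*, the folding sensor that reglucosylates glycoproteins, by 0.34, and *Dnajc10*, a disulfide reductase, by 0.28. *Fkbp14*, an isomerase that acts on collagen, fell by 0.73, *Pdia5* by 0.39 and *Ero1b*, which supplies disulfide bonds, by 0.27.

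Of 19 other degradation genes, 3 were higher (15.8%) and 1 was lower (5.26%), beside 16.9% and 8.55% of all genes. The ubiquitin ligase *Rnf139* changed by 0.32, the ubiquitin-conjugating enzyme *Ube2g2* by 0.37 and the ubiquitin-like modifier *Ufm1* by 0.30. *Os9*, a lectin that hands glycoproteins to HRD1, changed by -0.24. Of 17 other sensors and transcription factors, 4 were higher (23.5%) and none was lower. These were the eIF2 kinases *Eif2ak2* (65.6 against 41.5) and *Eif2ak1* (0.30), *Mbtps1* (0.29), the protease that cuts ATF6, and the cell death gene *Bbc3* (0.52).

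Of 35 other ATF4 target and amino acid genes, 7 were higher (20%) and 1 was lower (2.86%), beside 16.9% and 8.55% of all genes. *Cth*, the enzyme that makes cysteine from cystathionine, stood at 402.7, 507.8, 437.5 and 379.1 on luciferase arrays and at 211.5, 231.2 and 238.7 on blank arrays. The groups were far apart, with a log2 change of 0.92 (SE 0.11, adjusted p = 7.8e-04 from limma). *Aldh1l2* and *Mthfd1l*, mitochondrial folate enzymes like *Mthfd2*, were higher by 0.39 and 0.26. *Sesn2*, a leucine sensor, was higher by 0.36.

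The neutral amino acid carrier *Slc1a5* was higher by 0.53, the lipoprotein receptor *Vldlr* by 0.25, and *Slc7a3* and *Slc7a1*, both carriers of arginine and lysine, changed in opposite directions, by 0.32 and -0.34. None of the 13 transfer RNA synthetase genes in this list passed, with changes from -0.29 to 0.11.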

How the data were processed

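Total RNA from 4 luciferase and 3 blank cultures was measured on Affymetrix mouse expression arrays. The authors normalized the arrays with RMA, as the submitters' processing notes and the methods state, with no version named, and deposited linear intensity values. The RNA extraction reagent differs between the labels and the methods. The blank columns of the deposited table sit 1 row low. Moving them up by 1 row brought the correlation of log2 group means across probe sets from 0.421 to 0.995, and moves of other sizes gave at most 0.421. The table held 0 columns of other samples.

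Of 45101 probe sets, 64 controls and 2441 with _x in the name were left out, and 22748 that reached 50 on at least 1 array went, as log2 values, into limma 3.58.1 in R 4.3.3, with Benjamini-Hochberg adjustment. Each gene was represented by its tested probe set of highest mean. Of the tested probe sets, the 20536 that name 1 gene were used for genes. Levels were not compared between probe sets. Array number limits the precision. The calculation was also run on simulated data with independent noise. These data held no shift shared by a whole array, so they do not test the dependence on scaling. Genes named from the other pathway lists are up to 4 per list and direction with the smallest adjusted p, and the others named were chosen with their values known. The members and lists were chosen with earlier results of these data known. Figures were drawn with matplotlib 3.10.9 in Python 3.11.15. Alternatives were other filters on level, scalings, probe set rules, limma options, a fold threshold and leaving out each array.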

Additional observations from a re-analysis of the deposited data

Results flagged for a closer look

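In 5 of the 36 genes, 1 of the 4 luciferase arrays lay far from the other 3 by Dixon's test at the 95% level, which is 13.9% of these genes and 5.55% of all 12315 genes. Chance flags about 1 in 20 such groups. In 3 of the 5, the array was luciferase replicate 2, and it was high: *Herpud1* stood at 1291.63 (the others at 998.8 to 1041), *Ddit3* at 1434.54 (the others at 1078 to 1119) and *Chac1* at 1541.1 (the others at 1129 to 1198). *Derl1* was low on luciferase replicate 4, at 983.21 against 1070 to 1086, and *Derl2* was low on luciferase replicate 3, at 351.96 against 387.7 to 390.3. *Herpud1*, *Ddit3* and *Chac1* did not pass the comparison with or without replicate 2. Without it their changes were 0.22, -0.23 and 0.17 (adjusted p = 0.112, 0.247 and 0.163 from limma).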

How the results depend on the processing

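Of the 12 genes that passed, *Mthfd2* and *Slc3a2* passed under all 16 alternatives other than the fold threshold, *Slc7a5* and *Creld2* under 15, and the other 8 under 6 to 12. *Creld2* was lost without blank replicate 6 (adjusted p = 0.0542). The 9 higher genes became 4 without a level filter, 5 under quantile normalization, 3 with centring and 1 at 1.5-fold, 9 to 12 under the other alternatives that kept all arrays, and 1 to 9 when 1 array was left out (1 without blank replicate 6, 9 without blank replicate 7, 3 or 4 without any other). The 3 lower genes became 5 under quantile normalization, 5 with centring and 1 at 1.5-fold, and 1 to 3 when 1 array was left out (1 without blank replicate 5). The chaperone median of 0.158 was 0.120 under quantile normalization and 0.0621 with centring, and 0.138 to 0.185 with 1 array left out. The degradation median of 0.0666 was 0.173 with a filter of 100, 0.0135 under quantile normalization, -0.0293 with centring, 0.149 with the mean of all probe sets, and 0.0404 to 0.0975 with 1 array left out. The cause of these shifts was not tested, and leaving out an array also lowers the number of arrays. Values of 13 genes changed sign. With centring, *Calr* had -0.0212, *Dnajb11* -0.0170, *Sel1l* -0.0293, *Psat1* -0.00544 and *Ppp1r15a* -0.0432, and *Ppp1r15a* had -0.0308 under quantile normalization. With the mean of all probe sets, *Derl1* had 0.0128, *Hsp90b1* 0.128, *Pdia3* 0.0259, *Atf6* 0.0706, *Ern1* -0.128 and *Ddit3* 0.0362. With array weights, *Hsp90b1* had 0.0535 and *Atf6* 0.171, and with _x probe sets kept *Trib3* had 0.232. With 1 array left out, *Hsp90b1* ran from -0.164 to 0.0199, *Pdia3* from -0.101 to 0.00593, *Atf6* from -0.223 to 0.159, *Derl3* from -0.119 to 0.00345 and *Ppp1r15a* from -0.140 to 0.235. Of these only *Derl1* had passed. Some genes that did not pass on the deposited values with all arrays did so under part of the 16 alternatives. *Shmt2* passed as higher under 6, *Hyou1* under 5, *Herpud1* under 2 and *Canx* under 1. *Pdia6*, *Edem1* and *Atf4* passed as lower under 2 each. With array weights *Atf4* had -0.27 (adjusted p = 0.0478 from limma). No paired analysis was run because the labels give no pairing of luciferase and blank cultures.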
